A study of Mus musculus with 4 samples.

Results

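The genes examined here encode the integrins, their counter-receptors and membrane partners, and the proteins that tie integrins to the cytoskeleton, in group 2 innate lymphoid cells (ILC2s) from bronchoalveolar lavage (BAL) fluid. The 36 members were taken by gene symbol from the 24537 genes quantified in each library. They comprise 14 integrin alpha chains, 8 integrin beta chains, 7 counter-receptors and other adhesion receptors, 4 tetraspanins and 3 integrin adaptors.

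An integrin is a pair of an alpha and a beta chain that spans the membrane, and each pair binds its own set of ligands on other cells or in the matrix. Lymphocytes use the pair of *Itgal* and *Itgb2* (LFA-1) to bind ICAM proteins, *Itga4* with *Itgb7* or *Itgb1* to bind VCAM-1 and MAdCAM-1, and *Itgae* (CD103) with *Itgb7* to bind E-cadherin on epithelium. Talin and kindlin bind the beta chain inside the cell and switch the integrin on, while tetraspanins gather integrins and other receptors into membrane domains.

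IL-33-stimulated ILC2s (2 libraries) came from mice given repeated airway doses of IL-33, an alarmin that activates ILC2s directly, and were compared with chronic HDM-stimulated ILC2s (2 libraries) from mice given repeated intranasal house dust mite extract over several weeks. Both groups carried the GATIR allele on a C57BL/6 background, in which YFP is made from the *Gata3* transcript, and cells were sorted the day after the final challenge as Lineage-Sca-1+YFP+ cells. The labels give Gata3-YFP/YFP mice and CD25High cells for IL-33, and Gata3-YFP/WT mice and CD25Low cells for chronic HDM, whereas the study's methods name homozygous mice only and describe no CD25 gate. Stimulus, duration, reporter genotype and CD25 level therefore cannot be told apart in these 4 libraries. The libraries of a group are described as biological replicates, but the number of mice behind each was not given and age was stated only as a range over the whole study, so a p-value here sets the groups against the scatter of these 4 libraries alone.

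Values are RPKM (reads per kilobase of exon, scaled to the mapped reads of the library), and the depth recovered from the files was 13097455 and 11743124 mapped reads in the IL-33 libraries and 19225123 and 18395442 in the chronic HDM libraries. The labels were matched by *Il2ra*, which encodes CD25, at 432 and 376 RPKM in IL-33 and 27.6 and 22.0 RPKM in chronic HDM, and all 15 ILC2 markers exceeded 2 RPKM in every library. *Gata3*, whose reporter was used in the sort, was at 14.9 and 18.9 RPKM in IL-33 and 216 and 195 RPKM in chronic HDM. The chronic HDM libraries differed more from each other than the IL-33 libraries did (Pearson's r of log2 values across genes, which are not independent replicates, was 0.975 in IL-33 and 0.825 in chronic HDM). Transcripts of 16 macrophage markers summed to 1339 and 316 RPKM in IL-33 and to 3182 and 9475 RPKM in chronic HDM. Of these markers, 7 and 5 exceeded 2 RPKM in the IL-33 libraries and 8 and 15 in the chronic HDM libraries, with *Chil3* and *Lyz2* the leading ones in chronic HDM replicate 2 (6162 and 2259 RPKM). That library also held the highest value of 13 of the 31 members with a read, against 7, 5 and 6 in IL-33 replicate 1, IL-33 replicate 2 and chronic HDM replicate 1. The same count was not made over all genes, so it is not read as a trait of the members. The libraries of 3 of the 23 tested members (*Sdc4*, *Cd9* and *Itgax*) fell in the order of the macrophage sums, lowest in IL-33 replicate 2 and highest in chronic HDM replicate 2 (13.0%, against 4.29% of all genes tested). Among the macrophage markers, *Chil3*, *Lyz2* and *Csf1r* kept that order, whereas *Adgre1*, *Mertk*, *Cd68*, *Spp1*, *Mrc1* and *Apoe* did not. The part of macrophage transcripts in the differences below was not tested. Values without chronic HDM replicate 2 are given for several of the members, but not gene by gene for the wider lists. Such fits take their scatter from the IL-33 libraries alone, so only the log2 fold change is given.

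Of the 36 members, 23 reached the mean of 2 RPKM over the 4 libraries that a gene needed to be tested, and 1 of them changed at the study's limits, an adjusted p under 0.01 with a log2 fold change beyond 1 in either direction (limma on log2(RPKM + 1), IL-33 over chronic HDM; 3.34% of all genes passed). This was *Sdc4*, lower after IL-33, where 0.536% of all 9523 genes tested were called in that direction. None of the 23 was called higher after IL-33, against 2.8% of all genes tested. At an adjusted p under 0.05, 5 members were lower after IL-33 (*Sdc4*, *Cd44*, *Cd9*, *Itgae* and *Itgb1*; 21.7% of 23, against 4.78% of all genes) and 2 were higher (*Cd47* and *Vcam1*; 8.7%, against 13.8%), and 18.5% of all genes passed in either direction. The looser limit was added to describe members close to the first, and these genes are named with their values already seen. Both IL-33 libraries lay above both chronic HDM libraries for 8 of the 23 (34.8%, against 41.7% of all genes tested), both lay below for 9 (39.1%, against 23.5%), and the libraries overlapped for 6 (65.2% of all genes did not overlap). The median log2 fold change was -0.04 for the 23 members and 0.28 for all genes tested. *Vcam1* and *Itgax* could pass the RPKM minimum only through the group in which each was high. *Itgax* averaged 1.71 RPKM in IL-33 and 5.22 RPKM in chronic HDM. The counts above therefore describe the tested members and not the family of 36.

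**Figure D1:**
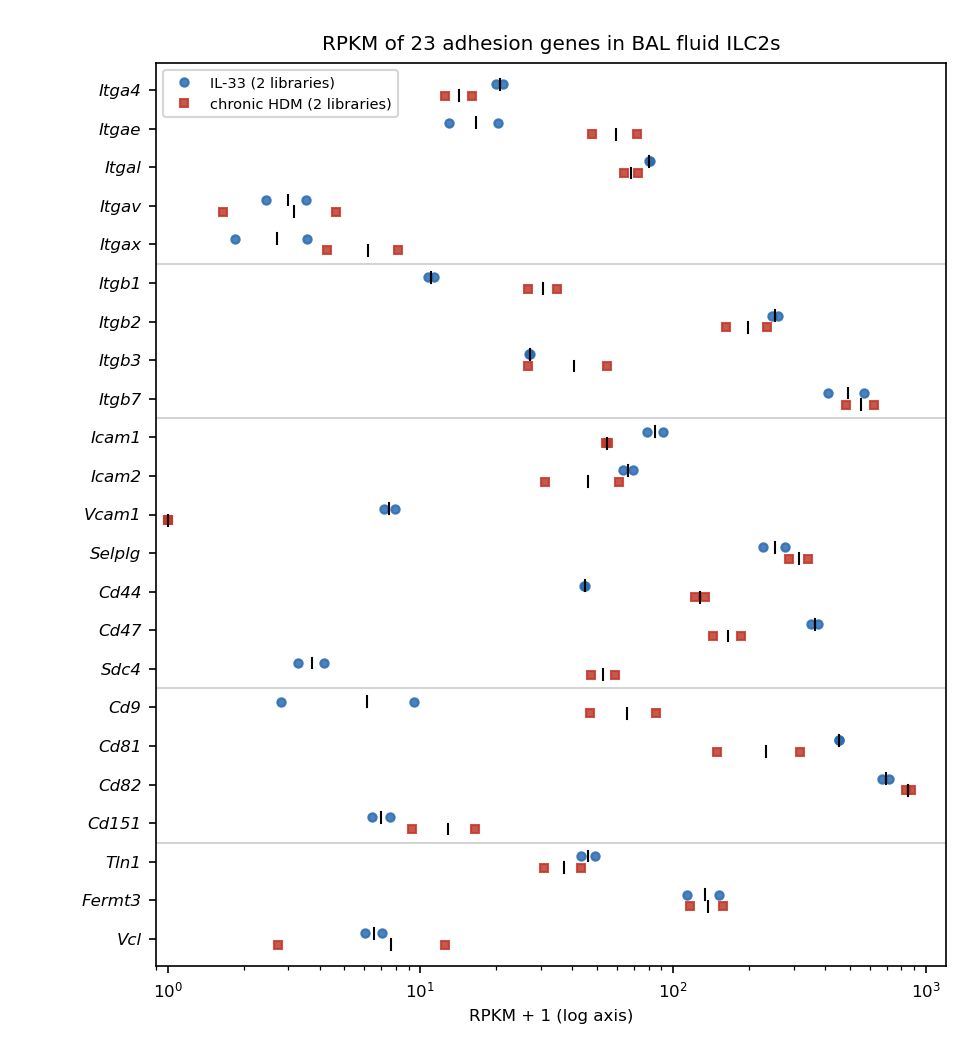
RPKM + 1 on a log axis for the 23 tested members, with 1 row per gene ordered by class, IL-33 libraries as blue circles above chronic HDM libraries as red squares, and the mean of each group as a black bar. *Cd82*, *Itgb7* and *Cd81* lie farthest to the right, and the groups stand widest apart for *Sdc4*, *Cd9* and *Vcam1*.

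*Sdc4* (chr2:164424247-164443188, minus strand, mm10) encodes syndecan-4, a transmembrane heparan sulphate proteoglycan that acts with integrins at sites of adhesion to matrix. It had 3.17 and 2.29 RPKM in IL-33 libraries, against 46.2 and 57.7 RPKM in chronic HDM libraries. Both IL-33 libraries lay far below both chronic HDM libraries, and the means of 2.73 ± 0.625 RPKM in IL-33 and 52.0 ± 8.13 RPKM in chronic HDM (SD, n = 2 each) differed 19.0-fold, with chronic HDM the higher. The log2 fold change of RPKM + 1 was -3.83 ± 0.342 (SE; 95% interval -4.68 to -2.97; adjusted p = 0.00687, limma). In a bulk library, a lower level can mean fewer cells with the transcript or less transcript per cell, and these cannot be told apart here. The call was lost without either IL-33 library, fits in which no gene at all was called. Without chronic HDM replicate 2 the log2 fold change was -3.67. The *Sdc4* values followed the order of the summed macrophage markers over the 4 libraries, which not every marker kept. The part of macrophage transcripts in the *Sdc4* difference was not tested. *Sdc4* also missed the limit with a pseudocount of 0.1, no minimum RPKM, no intensity trend or voom on recovered reads, where adjusted p ran from 0.0148 to 0.0328. The other syndecans, which were not chosen by the members' rule, were low, with *Sdc1* at 0.901 and 0.196 RPKM in IL-33 and 4.45 and 2.75 RPKM in chronic HDM (adjusted p = 0.112). *Sdc1* could pass the RPKM minimum only through chronic HDM, so its fit is a description only.

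*Cd44* (chr2:102811142-102901665, minus strand, mm10) encodes the main leukocyte receptor for hyaluronan. Its values were 43.9 and 43.6 RPKM in IL-33 libraries and 132 and 121 RPKM in chronic HDM libraries, so the groups did not overlap and the spread within each was small. The means of 43.8 ± 0.199 RPKM in IL-33 and 127 ± 7.83 RPKM in chronic HDM (SD, n = 2 each) gave a log2 fold change of -1.51 ± 0.2 (SE; 95% interval -2.01 to -1.01; adjusted p = 0.0109, limma), which narrowly missed the limit of 0.01, so *Cd44* was not called. Without chronic HDM replicate 2 the log2 fold change was -1.57.

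*Cd47* (chr16:49855654-49911683, plus strand, mm10) encodes a widely expressed membrane protein that associates with integrins and, as the ligand of SIRP-alpha, restrains phagocytosis of the cell that carries it. It was measured at 373 and 351 RPKM in IL-33 libraries, against 184 and 142 RPKM in chronic HDM libraries. Every IL-33 value was above every chronic HDM value, with means of 362 ± 15.2 RPKM in IL-33 and 163 ± 29.5 RPKM in chronic HDM (SD, n = 2 each). The log2 fold change was 1.16 ± 0.191 (SE; 95% interval 0.68 to 1.63; adjusted p = 0.0167, limma), and 0.97 without chronic HDM replicate 2. Under every other scaling tried the *Cd47* difference also stayed below a log2 fold change of 1 (0.62 with quantile normalization, 0.89 with median-of-ratios scaling and 0.92 without 45S ribosomal RNA), and adjusted p was 0.0725 with no intensity trend. *Sirpa*, the gene of its macrophage-side partner and a member of another list below, had 1.14 and 0 RPKM in IL-33 and 4.56 and 7.63 RPKM in chronic HDM (adjusted p = 0.0577). *Sirpa* could pass the RPKM minimum only through chronic HDM, so its fit is a description only.

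The stretches directly upstream of these 3 genes are shown because their transcripts had the smallest adjusted p among the members, and because 2 of the 3 lay on the chronic HDM side and 1 on the IL-33 side. Each run is the 250 bases before the transcript start in RefSeq (GRCm38.p6), written 5′ to 3′ on the gene's own strand, for *Sdc4* at chr2:164443189-164443438 (minus strand), *Cd44* at chr2:102901666-102901915 (minus strand) and *Cd47* at chr16:49855404-49855653 (plus strand). Capitals mark matches on either strand to a GC box (GGGCGG) or a GATA motif (AGATAA).
Sdc4: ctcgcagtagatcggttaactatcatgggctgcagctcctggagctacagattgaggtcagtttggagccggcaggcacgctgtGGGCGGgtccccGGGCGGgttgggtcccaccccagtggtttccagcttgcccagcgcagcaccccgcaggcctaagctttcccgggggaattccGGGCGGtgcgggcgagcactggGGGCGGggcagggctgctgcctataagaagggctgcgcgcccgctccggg
Cd44: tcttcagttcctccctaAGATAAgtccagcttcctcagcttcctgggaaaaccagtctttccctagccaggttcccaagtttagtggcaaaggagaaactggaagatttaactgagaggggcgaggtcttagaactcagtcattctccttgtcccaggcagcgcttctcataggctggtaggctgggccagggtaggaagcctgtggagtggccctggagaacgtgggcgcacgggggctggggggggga
Cd47: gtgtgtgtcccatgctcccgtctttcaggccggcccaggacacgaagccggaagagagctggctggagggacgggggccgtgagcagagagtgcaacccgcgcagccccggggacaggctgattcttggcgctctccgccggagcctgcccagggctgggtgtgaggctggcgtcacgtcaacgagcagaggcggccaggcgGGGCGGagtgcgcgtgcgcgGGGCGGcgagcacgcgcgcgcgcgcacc
The *Sdc4* stretch held 4 GC boxes and was 68.0% G or C, the *Cd47* stretch held 2 and was 73.2% G or C, and the *Cd44* stretch held none, was 56.4% G or C and held 1 GATA match. Of 32851 RefSeq promoters of the same length, 32.7% held a GC box and 9.99% a GATA match. An AP-1 motif (TGANTCA, in 6.75% of all promoters) and a STAT motif (TTCNNNGAA, in 7.02%) had no match in the 3 stretches. Promoters were listed for 26 of the 36 members, and a match of letters is a description of the sequence only.

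Among the counter-receptors, *Vcam1* (chr3:116110020-116129688, minus strand, mm10) was detected in IL-33 libraries alone. VCAM-1 is an immunoglobulin-family ligand of the integrin pair of *Itga4* and *Itgb1*, best known from activated endothelium. It had 6.15 and 6.94 RPKM in IL-33 and no read in either chronic HDM library. With a floor of 3 reads per library set for chronic HDM, the mean level was 139-fold higher in IL-33. The floor covers counting error only, so this fold is not a lower bound. Fewer genes had a read in chronic HDM (10675 and 12134) than in IL-33 (13102 and 12895), despite more mapped reads. The fitted log2 fold change of *Vcam1*, 2.91 (adjusted p = 0.0191, limma), depends on the added 1 RPKM. Since *Vcam1* reached the RPKM minimum only through its IL-33 level, the fit is given as a description and not as support for the difference. Endothelial and fibroblast markers summed to 0.099 and 0 RPKM in the same IL-33 libraries and 8 of the 10 had no read in any library. Dendritic cell markers summed to 2473 and 2480 RPKM in IL-33, against 187 and 325 RPKM in chronic HDM, and basophil and mast cell markers to 52.3 and 44.5 RPKM, against 0 and 2.87 RPKM. Of the 9 dendritic cell markers, 5 and 6 exceeded 2 RPKM in IL-33 and 5 and 5 in chronic HDM. They include MHC class II genes and *Ccr7*, which the paper also describes in ILC2s. The Lineage mix of the sort held antibodies to CD11b, CD11c and FcεRIα, a gate meant to remove dendritic cells, basophils and mast cells. The part of such cells in the *Vcam1* signal was not tested.

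The LFA-1 ligands lay on the same side as *Vcam1* in every library but did not pass either limit. *Icam1* had 77.7 and 90.7 RPKM in IL-33 and 54.5 and 53.1 RPKM in chronic HDM (log2 fold change 0.63, 95% interval 0.10 to 1.16, adjusted p = 0.0934, limma). *Icam2*, a ligand expressed constitutively on leukocytes and endothelium, had 68.2 and 62.5 RPKM in IL-33 and 60.0 and 30.1 RPKM in chronic HDM (log2 fold change 0.61, adjusted p = 0.284). The gap in *Icam2* rested on chronic HDM replicate 2, and the log2 fold change without that library was 0.12. *Selplg*, which encodes the P-selectin ligand PSGL-1, had 226 and 277 RPKM in IL-33 and 341 and 288 RPKM in chronic HDM, a non-overlapping but small difference (log2 fold change -0.32, adjusted p = 0.273).

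**Figure D2:**
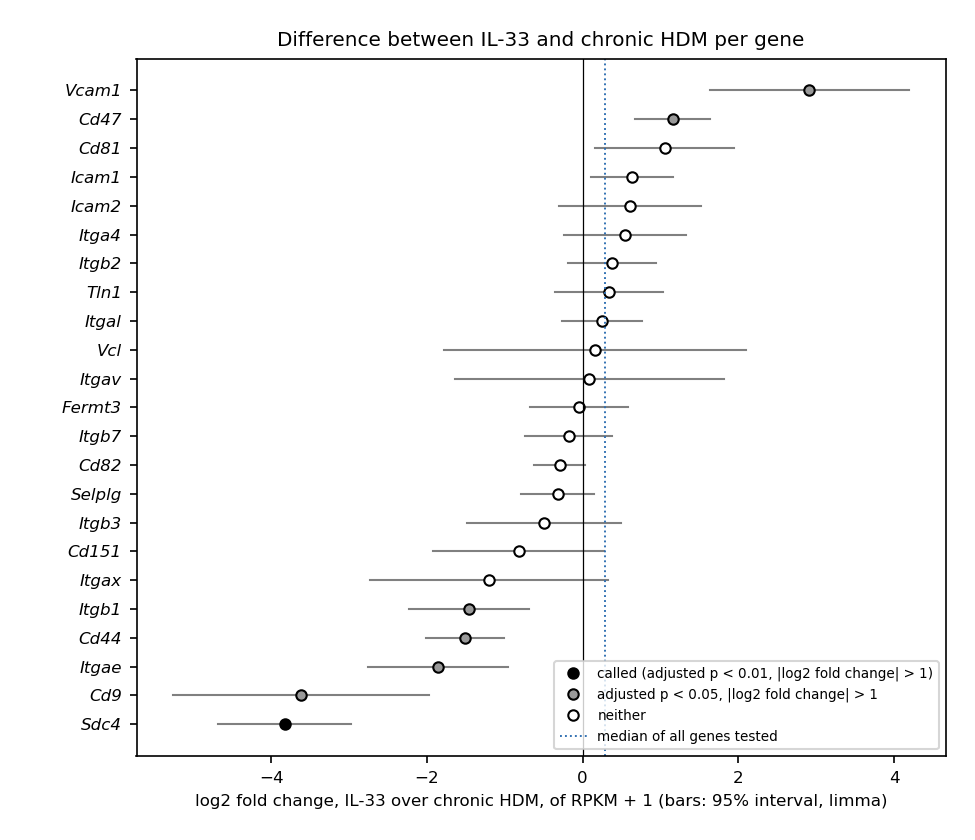
Log2 fold change of RPKM + 1, IL-33 over chronic HDM, for the 23 tested members, with bars for the 95% interval from limma and the all-gene median of 0.28 dotted. The filled point for *Sdc4* at -3.83 is the member called, grey points are the 6 others at adjusted p under 0.05, and among the open points only the intervals of *Cd81* and *Icam1* leave out 0.

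Of the 14 alpha chains, 5 were tested and 3 had no read in any library and were not detectable at this depth (*Itga2b*, the platelet chain, *Itga7*, a laminin-binding chain of muscle, and *Itga9*, a partner of *Itgb1*). *Itgae*, the alpha chain of CD103, had 12.0 and 19.2 RPKM in IL-33 libraries, against 46.7 and 70.8 RPKM in chronic HDM libraries. The highest IL-33 value was below the lowest chronic HDM value, and the means were 15.6 ± 5.09 RPKM in IL-33 and 58.7 ± 17.0 RPKM in chronic HDM (SD, n = 2 each). The log2 fold change was -1.85 ± 0.360 (SE; 95% interval -2.75 to -0.95; adjusted p = 0.0241, limma), and -1.56 without chronic HDM replicate 2. *Itgae* (chr11:73090595-73147449, plus strand, mm10) overlaps *Gsg2* on the opposite strand, and reads were counted without strand. *Gsg2* itself lay the other way, at 8.84 and 9.31 RPKM in IL-33 and 0 and 1.35 RPKM in chronic HDM.

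*Itgal*, the LFA-1 alpha chain, was the most abundant alpha chain per length in every library, at 80.4 and 79.1 RPKM in IL-33 and 63.0 and 71.6 RPKM in chronic HDM. Its log2 fold change of 0.24 (adjusted p = 0.435, limma) was close to the median of all genes, and it turned negative when libraries were scaled otherwise (-0.27 with quantile normalization, -0.0148 with median-of-ratios scaling). *Itga4* had 20.3 and 19.0 RPKM in IL-33 and 15.0 and 11.5 RPKM in chronic HDM, which did not overlap and did not pass the test (log2 fold change 0.54, adjusted p = 0.265). The other 2 tested alpha chains were low. *Itgav*, a partner of several beta chains in binding matrix proteins, had 2.54 and 1.46 RPKM in IL-33 and 0.659 and 3.65 RPKM in chronic HDM (adjusted p = 0.941), so the groups overlapped.

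*Itgax* encodes CD11c and *Itgam* encodes CD11b, the alpha chains of myeloid cells, and antibodies to both proteins were in the Lineage mix of the sort. *Itgax* was measured at 2.56 and 0.853 RPKM in IL-33 and 3.27 and 7.17 RPKM in chronic HDM (log2 fold change -1.20, adjusted p = 0.214, limma), and the log2 fold change without chronic HDM replicate 2 was -0.73. *Itgam* had no read in 3 libraries and 13 reads (0.152 RPKM) in chronic HDM replicate 2, the library with the most macrophage transcripts.

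The remaining alpha chains averaged under 2 RPKM over the 4 libraries and were not tested. *Itga2*, which pairs with *Itgb1* to bind collagen, had 62 and 82 reads (1.13 and 1.67 RPKM) in IL-33 and none in chronic HDM. With a floor of 3 reads per library, which covers counting error only, its mean was 36.7-fold higher in IL-33. *Itga1*, its collagen-binding relative, was at 0.013 and 0 RPKM in IL-33 and 0 and 1.41 RPKM in chronic HDM. *Itga3* (laminin) had 0.865 and 1.001 RPKM in IL-33 and 0 and 1.53 RPKM in chronic HDM, and *Itga5* (fibronectin) had 1.60 and 0.039 RPKM in IL-33 and 0.428 and 4.11 RPKM in chronic HDM. *Itga6* (laminin) had 1.17 and 0.853 RPKM in IL-33 and 4.44 and 0.499 RPKM in chronic HDM. In *Itga3* and *Itga6* the chronic HDM libraries lay on both sides of the IL-33 libraries, and in *Itga5* the groups also overlapped.

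Expressed as a share of the summed RPKM of all alpha chains in a library, *Itgal* made up 65.6% and 64.2% in IL-33 and 47.2% and 41.5% in chronic HDM. The share of *Itgae* was 9.8% and 15.6% in IL-33, against 35.0% and 41.1% in chronic HDM. Thus *Itgae* RNA was at 0.149 and 0.243 of the level of *Itgal* in IL-33 and at 0.741 and 0.989 of it in chronic HDM, and the ratios of the groups did not overlap. The summed level of the alpha chains was 122 and 123 RPKM in IL-33 and 133 and 172 RPKM in chronic HDM. A single scaling factor per library leaves these shares unchanged, although quantile normalization need not. With 2 libraries a group the shares are given without a test.

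**Figure D3:**
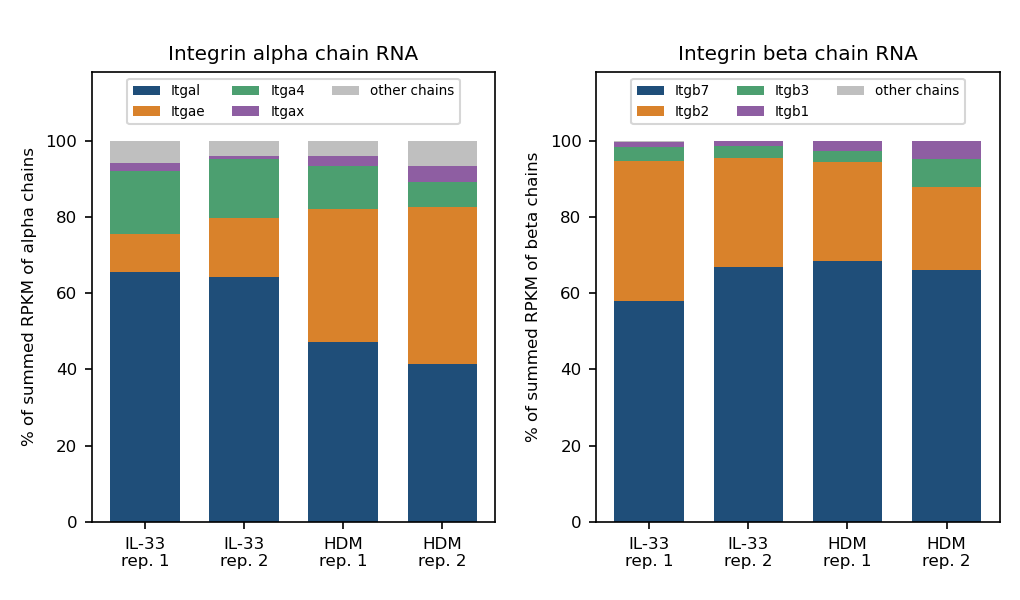
Share of each integrin chain in the summed RPKM of alpha chains (left panel) and beta chains (right panel), as stacked bars from 0 to 100% for the IL-33 libraries and then the chronic HDM libraries. *Itgae* (orange, left) holds 9.8% and 15.6% in IL-33 and 35.0% and 41.1% in chronic HDM, while *Itgb7* (dark blue, right) is the largest part of the beta chains in all 4 libraries.

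The beta chains were dominated by the partners of these alpha chains. *Itgb7*, which pairs with *Itgae* and *Itga4*, had 411 and 570 RPKM in IL-33 and 621 and 484 RPKM in chronic HDM, and the groups overlapped (log2 fold change -0.18, 95% interval -0.74 to 0.38, adjusted p = 0.604, limma). *Itgb2*, which pairs with *Itgal*, *Itgam* and *Itgax*, had 260 and 246 RPKM in IL-33 and 234 and 161 RPKM in chronic HDM (log2 fold change 0.38, adjusted p = 0.282). The *Itgb2* gap narrowed to 0.11 without chronic HDM replicate 2 and turned to -0.14 with quantile normalization. *Itgb7* RNA was at 1.58 and 2.32 times the *Itgb2* level in IL-33 and at 2.65 and 3.0 times in chronic HDM. Of the summed RPKM of all beta chains, *Itgb7* made up 57.9% and 66.8% in IL-33 and 68.5% and 66.0% in chronic HDM, and *Itgb2* 36.7% and 28.8% in IL-33 and 25.9% and 22.0% in chronic HDM.

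*Itgb1* (chr8:128685654-128733579, plus strand, mm10), the common partner of collagen-, laminin- and fibronectin-binding alpha chains and of *Itga4*, was the beta chain with the clearest difference. It was measured at 9.74 and 10.3 RPKM in IL-33 libraries, against 25.7 and 33.6 RPKM in chronic HDM libraries. All IL-33 values lay below all chronic HDM values, with means of 10.04 ± 0.42 RPKM in IL-33 and 29.7 ± 5.57 RPKM in chronic HDM (SD, n = 2 each). The log2 fold change was -1.46 ± 0.309 (SE; 95% interval -2.24 to -0.69; adjusted p = 0.0297, limma), and -1.28 without chronic HDM replicate 2.

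*Itgb3*, the partner of *Itgav* and of the platelet chain *Itga2b*, had 26.2 and 26.0 RPKM in IL-33 and 25.6 and 53.7 RPKM in chronic HDM. Chronic HDM replicate 2 stood alone, and without it the log2 fold change of -0.49 (adjusted p = 0.413, limma) became 0.02. No platelet marker exceeded 2 RPKM in any library, and the 8 platelet and megakaryocyte markers summed to 3.37 and 0.046 RPKM in IL-33 and 0 and 0.308 RPKM in chronic HDM. Among the untested beta chains, *Itgb5* had 2.08 and 1.47 RPKM in IL-33 and 0 and 0.806 RPKM in chronic HDM, and *Itgb4*, the epithelial hemidesmosome chain, had 0.102 and 0.029 RPKM in IL-33 and no read in chronic HDM. *Itgb6* and *Itgb8*, which pair with *Itgav* to activate TGF-beta, had no read in any library.

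The adaptors that connect integrins to actin did not separate the groups. *Tln1* (talin) had 42.1 and 48.3 RPKM in IL-33 and 29.9 and 42.2 RPKM in chronic HDM (log2 fold change 0.33, adjusted p = 0.429, limma). *Fermt3*, the kindlin of blood cells, had 113 and 152 RPKM in IL-33 and 157 and 116 RPKM in chronic HDM (log2 fold change -0.04, adjusted p = 0.922). *Vcl* (vinculin) had 5.02 and 6.08 RPKM in IL-33 and 1.73 and 11.5 RPKM in chronic HDM, so its chronic HDM libraries lay on either side of the IL-33 libraries (adjusted p = 0.904). The libraries of the groups overlapped in all 3 adaptors, whereas 65.2% of all genes tested did not overlap.

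All 4 tetraspanins were tested, and their libraries overlapped in none of them, as in 65.2% of all genes tested. Of the 4, 3 lay on the chronic HDM side and 1 on the IL-33 side, against 23.5% and 41.7% of all genes tested. With only 4 genes this is not read as a trait of the tetraspanins. *Cd9* (chr6:125460266-125494755, minus strand, mm10), a tetraspanin of myeloid, platelet and activated lymphoid cells, had 8.46 and 1.80 RPKM in IL-33 libraries, against 45.8 and 84.3 RPKM in chronic HDM libraries. The means of 5.13 ± 4.71 RPKM in IL-33 and 65.0 ± 27.2 RPKM in chronic HDM (SD, n = 2 each) differed 12.7-fold, with chronic HDM the higher, although the libraries within each group also differed widely. Its log2 fold change was -3.62 ± 0.656 (SE; 95% interval -5.26 to -1.98; adjusted p = 0.0204, limma), and -3.18 without chronic HDM replicate 2. *Cd9* is 1 of the 3 members whose libraries fell in the order of the summed macrophage markers, which not every marker kept. The part of macrophage transcripts in the *Cd9* difference was not tested. The *Cd9* log2 fold change was -4.50 without IL-33 replicate 1 and -2.74 without IL-33 replicate 2. *Cd9* missed the limit of 0.05 in both of these fits, with voom (adjusted p = 0.0865) and with no minimum RPKM (adjusted p = 0.0633).

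*Cd82* was the most abundant member per length in every library, at 672 and 715 RPKM in IL-33 and 871 and 831 RPKM in chronic HDM (log2 fold change -0.29, adjusted p = 0.168, limma). *Cd81*, which is part of the B cell co-receptor and is expressed on most lymphocytes, had 451 and 454 RPKM in IL-33 and 316 and 149 RPKM in chronic HDM. Its log2 fold change was 1.06 (95% interval 0.16 to 1.95, adjusted p = 0.0946), and 0.52 without chronic HDM replicate 2. The ratio of *Cd82* to *Cd81* was 1.49 and 1.58 in IL-33 and 2.75 and 5.58 in chronic HDM. *Cd151*, a tetraspanin that binds laminin-binding integrins, had 5.42 and 6.62 RPKM in IL-33 and 8.29 and 15.4 RPKM in chronic HDM (log2 fold change -0.82, adjusted p = 0.235, and -0.41 without chronic HDM replicate 2).

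A wider set of 114 adhesion genes was examined beside the members, of which 109 were in the files and 63 were tested. Of these, 1 was called higher after IL-33 and none lower at an adjusted p under 0.01 (against 2.8% and 0.536% of all genes tested), and 4 were higher and 5 lower at 0.05 (against 13.8% and 4.78%). The gene called was *Tspan13*, a tetraspanin with 313 and 278 RPKM in IL-33 libraries and 85.8 and 93.9 RPKM in chronic HDM libraries. Its means of 296 ± 24.9 RPKM in IL-33 and 89.9 ± 5.74 RPKM in chronic HDM (SD, n = 2 each) differed 3.29-fold, and the log2 fold change was 1.71 ± 0.178 (SE; adjusted p = 0.00723, limma). *Tspan13* was not called with quantile normalization, median-of-ratios scaling, voom or without either IL-33 library. The 10 tested tetraspanins outside the members had a median log2 fold change of -0.14. The leukocyte tetraspanins *Cd53* and *Cd37* lay on the chronic HDM side, at 255 ± 1.47 RPKM in IL-33 and 328 ± 16.5 RPKM in chronic HDM for *Cd53* and at 105 ± 6.49 RPKM in IL-33 and 132 ± 0.179 RPKM in chronic HDM for *Cd37*, and neither passed a limit (adjusted p = 0.151 and 0.252). *Tspan32* averaged 123 ± 11.8 RPKM in IL-33 and 230 ± 94.8 RPKM in chronic HDM, which did not pass (adjusted p = 0.12). *Tspan31* averaged 107 ± 3.79 RPKM in IL-33 and 62.3 ± 11.9 RPKM in chronic HDM (adjusted p = 0.0651).

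The signalling and scaffold genes that act with integrins inside the cell formed the largest of these lists, with 31 of 45 tested and a median log2 fold change of 0.40. Its most abundant genes were *Skap1*, an adaptor for LFA-1 activation in T cells, at 209 ± 8.45 RPKM in IL-33 and 159 ± 8.40 RPKM in chronic HDM (adjusted p = 0.151, limma), and *Rassf5*, which encodes the Rap1 effector RAPL, at 151 ± 5.66 RPKM in IL-33 and 163 ± 23.03 RPKM in chronic HDM (adjusted p = 0.723). The integrin-linked pseudokinase gene *Ilk* had 72.7 ± 4.98 RPKM in IL-33 and 88.0 ± 8.11 RPKM in chronic HDM, and the actin crosslinker *Actn4* had 84.6 ± 20.3 RPKM in IL-33 and 62.4 ± 15.9 RPKM in chronic HDM, neither past a limit. Genes at 0.05, named with their values already seen, fell on both sides. The GTPase *Rap1a*, an integrin activator, had 43.4 ± 3.32 RPKM in IL-33 and 15.8 ± 0.72 RPKM in chronic HDM (log2 fold change 1.40, adjusted p = 0.0219). Its effector *Apbb1ip* (RIAM) lay the other way at 4.81 ± 0.303 RPKM in IL-33 and 15.1 ± 0.943 RPKM in chronic HDM (log2 fold change -1.47, adjusted p = 0.0405). The focal adhesion protein *Zyx* was on the IL-33 side (log2 fold change 1.18, adjusted p = 0.0313), whereas the kinases *Ptk2b* (-1.12, adjusted p = 0.0413) and *Src* (-2.46, adjusted p = 0.0277) were on the chronic HDM side. *Src* averaged 0.921 RPKM in IL-33 and 9.99 RPKM in chronic HDM. It could pass the RPKM minimum only through chronic HDM, so its fit is given as a description and not as support for the difference.

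Of the 39 other adhesion receptors and selectins, 12 were tested, with a median log2 fold change of -0.51. *Pecam1* (CD31) had 20.8 ± 0.413 RPKM in IL-33 and 3.75 ± 1.65 RPKM in chronic HDM (log2 fold change 2.24, adjusted p = 0.0206, limma). The most abundant gene of the list was *Cd48*, a ligand of CD2-family receptors, at 142 ± 0.603 RPKM in IL-33 and 86.5 ± 61.2 RPKM in chronic HDM. The inhibitory receptor gene *Cd200r1* had 56.9 ± 2.78 RPKM in IL-33 and 113 ± 34.8 RPKM in chronic HDM, *Adgre5* (CD97) 48.8 ± 6.37 RPKM in IL-33 and 69.0 ± 11.05 RPKM in chronic HDM, and *Cd96* 24.7 ± 6.43 RPKM in IL-33 and 38.7 ± 21.7 RPKM in chronic HDM. None of these 4 passed a limit. *Epcam*, which is also an epithelial marker, had 3.65 and 1.91 RPKM in IL-33 and 21.5 and 9.07 RPKM in chronic HDM (adjusted p = 0.0563), beside 9 epithelial markers that summed to 14.9 and 5.52 RPKM in IL-33 and 25.7 and 78.4 RPKM in chronic HDM.

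The enzymes that build selectin ligands on PSGL-1 were represented by 12 genes, of which 10 were tested, with a median log2 fold change of -0.74. *B4galt1*, a galactosyltransferase, had 19.4 ± 0.641 RPKM in IL-33 and 49.7 ± 0.97 RPKM in chronic HDM (log2 fold change -1.31, adjusted p = 0.0221, limma). *Gcnt1*, the core 2 branching enzyme, had 2.10 ± 0.376 RPKM in IL-33 and 10.03 ± 2.56 RPKM in chronic HDM (log2 fold change -1.82, adjusted p = 0.0417). *Tpst2*, the tyrosine sulphotransferase, was the most abundant at 91.7 ± 1.78 RPKM in IL-33 and 105 ± 18.1 RPKM in chronic HDM (adjusted p = 0.569). The sialyltransferase *St3gal4* had 8.76 ± 0.28 RPKM in IL-33 and 18.9 ± 5.94 RPKM in chronic HDM (adjusted p = 0.112), and *Galnt1*, which starts O-glycan chains, had 20.51 ± 3.82 RPKM in IL-33 and 14.7 ± 5.48 RPKM in chronic HDM (adjusted p = 0.399).

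**Figure D4:**
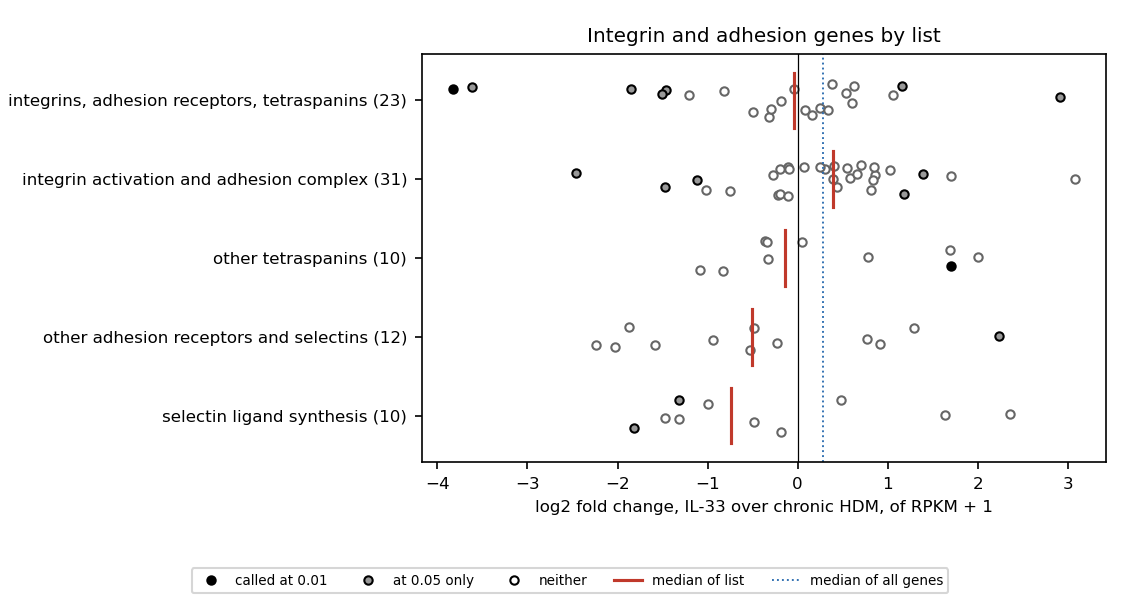
Log2 fold change of RPKM + 1, IL-33 over chronic HDM, for the 23 tested members and the 4 wider lists, with 1 point per gene, list medians in red and the all-gene median of 0.28 dotted. List medians run from 0.40 for the activation and adhesion complex to -0.74 for selectin ligand synthesis, and the filled points are *Sdc4* at -3.83 and *Tspan13* at 1.71.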

How the data were processed

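RNA was extracted from FACS-sorted BAL fluid ILC2s, made into Smart-seq2 libraries and sequenced as single reads. The authors aligned reads to mm10 with HISAT2 2.0.4 and counted exons per gene with HOMER, and the deposited values are RPKM, 1 transcript model per gene and without a strand setting. For the study's own gene lists the authors used DESeq2, which was not used here because the unit is not counts.

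From the RPKM steps of low genes, depth was recovered (99.8% to 100% of values up to 20 reads fell within 0.1 of a whole read). Genes averaging 2 RPKM or more over the libraries (9523) were fitted with limma 3.58.1 in R 4.3.3 (intensity trend, two-sided, Benjamini-Hochberg over all genes) on log2(RPKM + 1), which understates the change of low genes. Calls needed an adjusted p under 0.01 and an absolute log2 fold change over 1, and the fit was tested on simulated data. Intervals are 95% from limma, and floors of 3 reads cover counting error only. Alternatives were other pseudocounts, minimums, scalings, variance models, a replicate block, a voom fit on recovered reads, and each library left out.

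Every member was named, with all 4 values where a group averaged at least 10 RPKM. From the wider lists, called genes and up to 4 others per list with the highest mean were named. The members, lists and tests were chosen with earlier results of these data known. Sequences came from RefSeq (GRCm38.p6).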

Additional observations from a re-analysis of the deposited data

How the results depend on the processing

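The number of members called higher after IL-33 (0) was 2 with a replicate block, 2 at an adjusted p of 0.05, and 0 to 4 when each library was left out. The number called lower after IL-33 (1) was 0 with a pseudocount of 0.1, no minimum RPKM, no intensity trend or voom, 2 with a pseudocount of 2, a minimum of 5 RPKM or quantile normalization, 4 with the replicate block, 5 at 0.05, and 0 to 4 with libraries left out. In the wider lists, 1 gene higher after IL-33 became 0 with a pseudocount of 0.1, no minimum, quantile normalization, median-of-ratios scaling, no trend, voom or scaling without 45S ribosomal RNA, 3 with the block, 4 at 0.05, and 0 to 10 with libraries left out. For genes lower after IL-33, 0 became 5 at 0.05 and 0 to 7 with libraries left out.

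Across genes, the difference between replicates 1 and 2 in IL-33 did not follow that in chronic HDM (correlation of deviations -0.0385). With 1 such difference per group, this cannot show whether shared replicate numbers mark a pairing. The block raised the calls over all genes from 267 and 51 to 987 and 267. All-gene calls (higher and lower after IL-33) were 11 and 2 with voom, 148 and 119 with quantile normalization, 82 and 40 with median-of-ratios scaling, 74 and 31 with scaling without 45S RNA (chosen after seeing the data; *Rn45s* took 4.95% and 3.45% of reads in IL-33 and 17.4% and 25.4% in chronic HDM), 394 and 76 with a pseudocount of 2, 502 and 107 with a minimum of 5 RPKM, and 0 and 0 with a pseudocount of 0.1, no minimum, no trend, or either IL-33 library left out. Calls rose in the fits without a chronic HDM library, which take their scatter from the IL-33 libraries alone. Counts of calls with libraries left out, here and above, are therefore not compared with the rest. Scaling moved the all-gene median from 0.28 to -0.0029 with quantile normalization, 0.05 with median-of-ratios and 0.06 without 45S RNA.

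The log2 fold change kept its sign in 15 of the 23 tested members under each of the 16 alternatives that could be run for them (*Itgax* and *Vcam1* had no value at a minimum of 5 RPKM). It turned with quantile normalization for *Itgal* (-0.27), *Itgav* (-0.53), *Itgb2* (-0.14), *Tln1* (-0.092) and *Vcl* (-0.14), with median-of-ratios scaling for *Itgal* (-0.0148), *Itgav* (-0.0894) and *Vcl* (-0.0664), and without 45S RNA for *Itgav* (-0.0634) and *Vcl* (-0.0317). With each library left out in turn it ran from -0.66 to 0.83 for *Itgav*, from -1.01 to 0.0244 for *Itgb3*, from -0.41 to 0.0577 for *Itgb7*, from -0.26 to 0.18 for *Fermt3* and from -0.94 to 1.26 for *Vcl*. The cause was not tested.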
